A study of Mus musculus with 4 samples.

Results

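The cells described here are CD4 T cells of the mouse small intestine that carried RNA of both Il17a, the signature cytokine of T helper 17 (Th17) cells, and Ifng, the signature cytokine of T helper 1 (Th1) cells. A cell was a member if its unique molecular identifiers (UMIs, tags that count captured RNA molecules) showed at least 3 of Il17a and at least 1 of Ifng, none of Foxp3, and fewer than 3 each of Il22 and Penk. In recipients 1, 2 and 4, 1007, 790 and 49 cells met this rule, 1846 of 19960 filtered cells in all. They made up 10.8% (exact 95% binomial interval 10.2 to 11.5), 8.55% (7.98 to 9.14) and 3.46% (2.57 to 4.55) of the cells of those recipients. The members were chosen by their measured Il17a and Ifng counts, with Foxp3, Il22 and Penk counts as limits, and Gzmb, Gzma, Zeb2 and Il18rap came with the rule as markers, so these genes are described below without a test. A pair of neighbouring classes served for comparison, named for the cytokine they held: Il17a-only cells (at least 3 Il17a UMIs, no Ifng, and the same limits for Foxp3, Il22 and Penk; 841, 747 and 68 cells) and Ifng-only cells (at least 1 Ifng UMI, no Il17a, and again the same limits; 1156, 1173 and 115 cells).

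The study profiled lamina propria CD4 T cells by droplet single-cell RNA sequencing in 4 mixed bone marrow chimeras. Each recipient was a Rag1-/- mouse, a strain that makes no T or B cells of its own, which was irradiated and given 10000000 marrow cells. One donor, 50% of the marrow, was wild type and CD45.1+, and the other 50% came from a Bcl3-/- donor that was CD45.2+; the animals were analysed after 16 weeks. Live CD45+CD3+CD4+ cells were sorted after staining with 2 barcoded antibodies, 1 for each CD45 allele, and the tag counts then gave a donor for most cells. The 4 recipients form 1 group, both donors' cells share the same irradiated host, and CD45.1 and CD45.2 mark the strain as well as the Bcl3 genotype, so that strain and genotype cannot be told apart. BCL3 is an atypical member of the IkB family that binds the NF-kB subunits p50 and p52.

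Th17 cells depend on IL-23 signalling and are abundant in the gut, where IL-17 supports the epithelial barrier and neutrophil recruitment. Some of them acquire T-bet (Tbx21) and make interferon-gamma in response to IL-12 and IL-23. Cells that make both cytokines are known from inflamed gut and brain and have been studied as a plastic or pathogenic form of the Th17 lineage.

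Among the members Cd3e, a chain of the T cell receptor complex, was found in 99.3%, 98.7% and 100% of the cells of recipients 1, 2 and 4, and Cd4 in 91.9%, 92.0% and 91.8%. The RNA of the other recipient, recipient 3, was mixed: 91.6% of its filtered barcodes held at least 3 Il17a UMIs, and its 335 gated barcodes, 82.1% of them with a UMI of the immunoglobulin gene Igkc, were left out of every comparison. The libraries of recipients 1, 2 and 4 held 60347749, 59190104 and 8642411 UMIs, and a pair of libraries had at most 33 barcodes in common, of which 0 had equal UMI totals. Depth was near in the 3 classes: the median was 5841, 5812 and 5669 UMIs per double-positive cell, 5833, 5834 and 5837 per Il17a-only cell, and 6074, 5751 and 6278 per Ifng-only cell in recipients 1, 2 and 4. Cells with both antibody tags and no donor call, a sign of 2 cells in 1 droplet, made up 1.69%, 3.29% and 2.04% of the double-positive, 1.31%, 2.41% and 1.47% of the Il17a-only and 2.25%, 2.30% and 0% of the Ifng-only cells, and their part in the results was not tested. Doublets of a single donor carry no such mark and no doublet caller was run. Cells with a CD45.1 call numbered 736, 851 and 102 and those with a CD45.2 call 8398, 8198 and 1289 in recipients 1, 2 and 4. Most random doublets would therefore join 2 CD45.2 cells and go unmarked. A doublet of an Il17a-only and an Ifng-only cell would meet the member rule, and its part was not tested.

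The sequences just upstream of the 2 defining cytokine genes, of the Th17 cytokine gene Il17f and of the granule gene Nkg7 are shown because these genes carry the contrasts below. Each is the 250 bases before the RefSeq start site (GRCm38.p6), 5′ to 3′ on the gene's own strand. Capitals mark matches on either strand to AGGTGT, the half-site bound by T-box factors such as T-bet (reverse complement ACACCT). It was found in 11.8% of 32851 promoter windows of this length. The Nkg7 match starts at position -14, counted from the start site, and the windows of Il17a, Il17f and Ifng did not hold the word. Gene spans given below come from GENCODE M21, whose longest transcripts of Il17f and Nkg7 start upstream of the RefSeq start site.
Il17a, chr1:20730655-20730904, plus strand: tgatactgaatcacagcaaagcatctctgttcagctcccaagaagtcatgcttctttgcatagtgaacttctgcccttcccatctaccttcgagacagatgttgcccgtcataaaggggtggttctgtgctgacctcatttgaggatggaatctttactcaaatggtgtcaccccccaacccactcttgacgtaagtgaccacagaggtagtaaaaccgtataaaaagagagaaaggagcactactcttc
Il17f, chr1:20784271-20784520, minus strand: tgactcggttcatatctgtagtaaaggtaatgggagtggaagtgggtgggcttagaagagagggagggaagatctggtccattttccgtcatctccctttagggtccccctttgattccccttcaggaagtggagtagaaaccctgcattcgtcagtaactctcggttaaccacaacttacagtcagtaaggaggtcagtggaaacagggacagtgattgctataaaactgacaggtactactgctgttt
Ifng, chr10:118440796-118441045, plus strand: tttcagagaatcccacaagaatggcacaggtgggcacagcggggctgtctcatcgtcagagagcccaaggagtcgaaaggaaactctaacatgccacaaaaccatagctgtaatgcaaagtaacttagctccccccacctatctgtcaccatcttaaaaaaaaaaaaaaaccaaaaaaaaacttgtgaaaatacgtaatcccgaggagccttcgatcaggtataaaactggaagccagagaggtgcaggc
Nkg7, chr7:43436888-43437137, plus strand: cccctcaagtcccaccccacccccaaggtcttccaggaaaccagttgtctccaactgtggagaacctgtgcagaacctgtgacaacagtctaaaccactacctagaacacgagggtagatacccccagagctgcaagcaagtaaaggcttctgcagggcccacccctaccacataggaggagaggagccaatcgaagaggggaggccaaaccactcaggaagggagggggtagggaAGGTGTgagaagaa
A match is a description of the letters in the window, not of a bound site.

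Levels are given as CPM, the count of a gene per 1000000 UMIs after summing the cells of 1 class in 1 recipient. The gate genes themselves (Il17a, chromosome 1, 20730905 to 20734496; Ifng, chromosome 10, 118441046 to 118445892, mm10) set the members apart by construction. Il17a stood at 7845, 6382 and 3404 CPM in the double-positive cells of recipients 1, 2 and 4, and at 6596, 5882 and 3086 CPM in the Il17a-only cells. Each recipient's double-positive cells thus had slightly more Il17a than its Il17a-only cells, although the rule asked the same minimum of both. The median was 42, 27 and 12 Il17a UMIs per double-positive cell against 27, 20 and 10.5 per Il17a-only cell. Ifng stood at 927, 970.4 and 706.5 CPM in double-positive and at 699, 700.2 and 397 CPM in Ifng-only cells, and was again higher in the double-positive cells of each recipient.

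At the edge of the rule, 25, 38 and 6 members held exactly 3 Il17a UMIs and 244, 198 and 17 held a single Ifng UMI. Just outside it, 60, 72 and 8 cells held 2 Il17a UMIs with Ifng. Gzmb was found in 52.0%, 31.6% and 33.3% of the members at 3 Il17a UMIs and in 40.0%, 30.6% and 25.0% of the cells at 2. The Gzmb share was higher on the inner side of the edge in each recipient, but by little in recipient 2. The Zeb2 share was also higher there in each recipient. Other markers did not follow. The Il18rap share was lower on the inner side in each, at 24.0%, 26.3% and 0% against 28.3%, 29.2% and 25.0%. The Gzma share was higher in recipient 1, lower in recipient 2 and equal in recipient 4. The share of cells with Ifng was higher at high Il17a counts than without Il17a. Among cells without Il17a it was 31.2%, 33.4% and 13.9% in recipients 1, 2 and 4, and among cells with 30 or more Il17a UMIs it was 60.7% (57.6 to 63.7), 55.4% (51.5 to 59.2) and 45.5% (24.4 to 67.8). Cells with 3 Il17a UMIs lay near the cells without any in recipients 1 and 2, at 35.2% and 37.3%. Recipient 4 showed no steady rise: the share was 38.5% at 1 Il17a UMI and 27.6% at 2. It was 42.9%, 41.0% and 40.5% there at 3, 4 to 9 and 10 to 29 Il17a UMIs.

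Naive-like cells served as a reference for such shares. They were taken as cells with both Ccr7 and Lef1 (660, 358 and 39 cells, median 7212, 7375 and 7017 UMIs) and should make neither cytokine. Whether free RNA in the droplets gave the cytokine UMIs of these cells was not tested. At least 3 Il17a UMIs were found in 6.97%, 8.94% and 0% of them and at least 1 Ifng UMI in 11.1%, 12.3% and 0%, where 0 of 39 cells allows a share of up to 7.69%. The whole gate took in 2.27%, 0.838% and 0% of naive-like cells, which is below the 10.8%, 8.55% and 3.46% of all cells that it took in. The intervals and limits on shares cover counting error only.

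The marker genes differed among the 3 classes in separate ways. Gzma (chromosome 13, 113093825 to 113100981), a serine protease of cytotoxic granules, reached 1015, 1479 and 3295 CPM in double-positive cells of recipients 1, 2 and 4, against 264, 255 and 452 CPM in Il17a-only and 558, 226 and 685 CPM in Ifng-only cells. The lowest double-positive value lay above the highest value of either other class. Gzmb (chromosome 14, 56258838 to 56262260), the protease that triggers death of target cells, stood at 1022, 788 and 739 CPM in double-positive cells, 384, 295 and 31.8 CPM in Il17a-only cells and 821, 502 and 118 CPM in Ifng-only cells. It was higher in the double-positive cells of every recipient, but the Ifng-only value of recipient 1 lay above the double-positive values of recipients 2 and 4. Zeb2 (chromosome 2, 44983632 to 45117395), a repressor linked to terminal effector differentiation, was at 286, 256.5 and 328 CPM in double-positive, 200.4, 148 and 204.5 CPM in Il17a-only and 42.02, 50.1 and 85.1 CPM in Ifng-only cells, so the 3 classes did not overlap. Il18rap (chromosome 1, 40515362 to 40551705), the accessory chain of the IL-18 receptor, was at 63.5, 52.2 and 83.5 CPM in double-positive cells, above the 43.3, 43.7 and 43.2 CPM of Il17a-only cells, and overlapped the Ifng-only values of 64.7, 68.2 and 50.8 CPM.

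**Figure D1:**
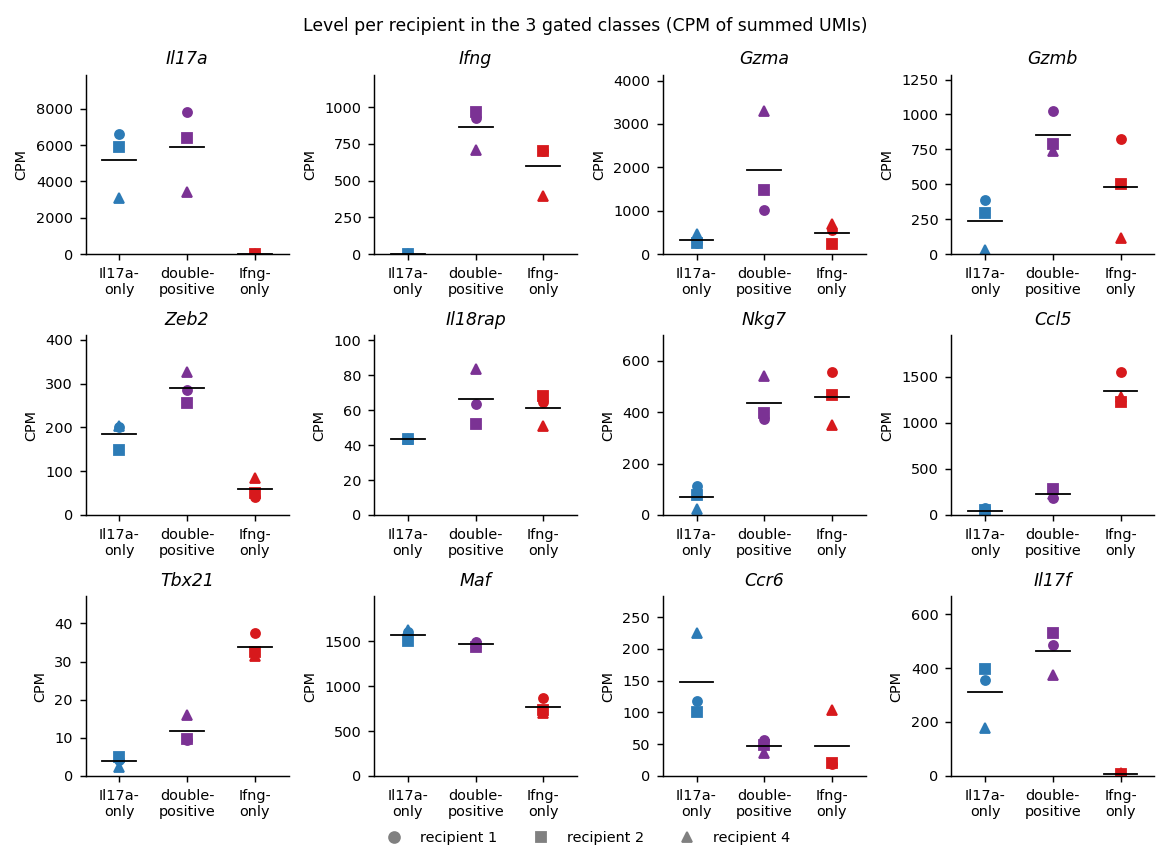
Level of 12 genes (CPM of summed UMIs, linear axis from 0) in Il17a-only, double-positive and Ifng-only cells; each symbol is 1 recipient and the bar is the mean of the 3. Gzma and Zeb2 were highest in double-positive cells of all 3 recipients, Nkg7 lay near the Ifng-only level, Maf lay near and Il17f above the Il17a-only level of the same recipient, and Ccl5 and Tbx21 between the 2 other classes.

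The granzymes were unevenly spread over the members. Both Gzma and Gzmb were found in 22.9%, 20.0% and 38.8% of double-positive cells of recipients 1, 2 and 4, against 5.35%, 5.09% and 0% of Il17a-only and 11.9%, 5.54% and 6.09% of Ifng-only cells. Gzmb alone was found in 34.3%, 26.5% and 8.16% of the members and Gzma alone in 5.76%, 8.73% and 20.4%. Neither was found in 37.0%, 44.8% and 32.7% of the members. The members of recipient 4 thus leaned to Gzma and those of recipients 1 and 2 to Gzmb. Cells with Gzma, Gzmb and Zeb2 together made up 18.7%, 14.6% and 24.5% of the members and at most 4.35% of either other class in any recipient. In naive-like cells, Gzma was found in 7.27%, 7.54% and 2.56% and Gzmb in 15.6%, 10.1% and 5.13%, at the higher depth given above.

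Within the Il17a-high cells (double-positive and Il17a-only together) the granule genes followed the number of Ifng UMIs. In recipient 1, Gzmb was found in 33.1% of 841 cells without Ifng, 43.4% of 244 cells with 1 Ifng UMI, 57.2% of 283 cells with 2 to 3, 59.2% of 282 cells with 4 to 9 and 71.2% of 198 cells with 10 or more. Recipient 2 ran from 24.9% to 63.5% over the same steps, and recipient 4, with 7 to 68 cells a step, from 7.35% to 71.4%. Nkg7, a protein of cytotoxic granules needed for their release, was found in 26.0% of recipient 1 cells at the first step and 72.2% at the last, and in 18.5% and 74.1% in recipient 2, against 12.6%, 14.8% and 2.56% of naive-like cells in recipients 1, 2 and 4. Il17f lay between 27.9% and 37.4% in recipient 1 and between 25.2% and 36.5% in recipient 2. Ccr6, the receptor for CCL20 that marks Th17 cells, went the other way, from 38.5% to 16.7% in recipient 1 and from 32.5% to 7.65% in recipient 2. These steps divide the cells by Ifng, which also defines the members, and are given as a description.

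**Figure D2:**
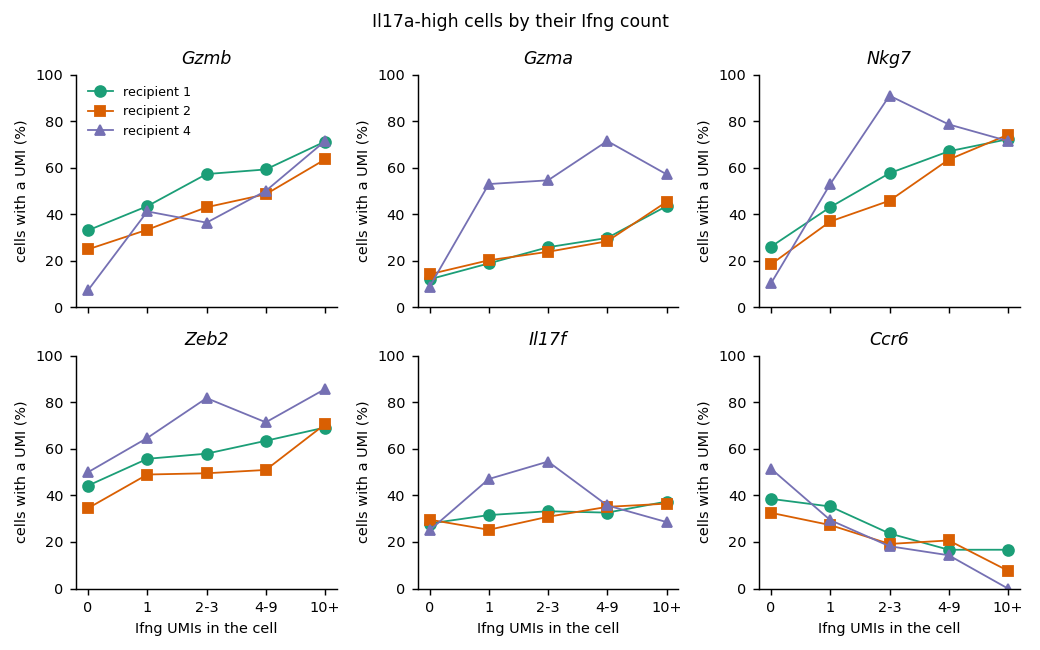
Share of Il17a-high cells with at least 1 UMI of 6 genes (vertical axis, percent of cells) by the number of Ifng UMIs in the cell (horizontal axis), 1 line per recipient. Gzmb, Gzma, Nkg7 and Zeb2 were higher at 10 or more Ifng UMIs than at 0 in all 3 recipients, Ccr6 was lower, and Il17f lay within 25.2% to 37.4% at every step in recipients 1 and 2; recipient 4 has 7 to 68 cells a point.

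The first comparison asked how double-positive cells differed from the Il17a-only cells of the same recipient. The called genes of the Th1 and cytotoxic granule lists were higher in the members and those of the naive and recirculation list were lower, with no called difference in Il23r or Maf. Of 10663 genes tested with edgeR's quasi-likelihood test, with the recipient as a block, 338 (3.17%) passed an adjusted p of 0.05, 154 higher (1.44%) and 184 lower (1.73%) in double-positive cells. In 6.31% of the genes tested all 3 double-positive values lay above all 3 Il17a-only values and in 6.35% below, which is the background for each gene said below not to overlap. Without the block the count was 19, and without recipient 1, 2 or 4 it was 122, 47 or 369. Levels across genes ran close to those of the Il17a-only cells: Spearman's rho over 10671 genes was 0.989, 0.987 and 0.908 in recipients 1, 2 and 4, against 0.961, 0.972 and 0.905 with Ifng-only cells. Genes are not independent replicates, and the sums of recipient 4 came from far fewer cells.

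Of the cytotoxic granule genes that passed the test Nkg7 (chromosome 7, 43437073 to 43438249) had the largest rise. It stood at 373, 397 and 539.5 CPM in double-positive cells of recipients 1, 2 and 4 and at 114.5, 76.7 and 22.7 CPM in Il17a-only cells, with no overlap. The log2 fold change was 2.21 (SE 0.18, edgeR adjusted p = 3.3e-07), 4.63-fold, and it passed the test under all 13 alternative settings. Nkg7 was also the gene whose detection followed Ifng most closely, in a ranking that left out the gate genes and the 4 markers. With every cell thinned to 3000 UMIs, it was found in 48.7%, 43.9% and 58.3% of double-positive cells. In Il17a-only cells it was found in 19.4%, 12.7% and 7.58%, a mean difference of 37.1 percentage points. The fibrinogen-like protein Fgl2 (23.9 points), AC163354.1 (23.8), the RNA-binding protein Rbm24 (22.7) and the syndecan Sdc4 (21.7) came next among the genes ranked.

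Of the cytotoxic granule list, which leaves out Gzma and Gzmb, 12 of 14 genes were tested, 3 rose and none fell. The median log2 difference of the 12 was 0.57, beside -2.73e-05 over all genes tested. Besides Nkg7, the 3 were Fasl, the ligand of the death receptor Fas (0.67, SE 0.14, edgeR adjusted p = 0.00995), and Cst7, an inhibitor of granule cathepsins (0.58, SE 0.09, edgeR adjusted p = 5.72e-04). Fasl was at 65.3, 74.3 and 70.65 CPM against 34.5, 55.2 and 36.4 CPM, and the 2 classes did not overlap. Fasl and Cst7 both lost the call without recipient 1 and without recipient 2, and Fasl also with DESeq2 and without the block. Prf1, which encodes the pore-forming perforin, was low throughout, at 4.11, 3.14 and 3.21 CPM in double-positive cells against 2.43, 0.4435 and 0 CPM, and did not pass (1.30, SE 0.43, edgeR adjusted p = 0.12). The granzyme gene Gzmk had a larger fitted difference than Nkg7 at a mean of 1.27 against 0.125 CPM, and did not pass either (2.98, SE 0.96, edgeR adjusted p = 0.107).

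In the Th1 list 5 genes rose and none fell of 14 tested, with a median log2 difference of 0.25. Ccl5, a chemokine of effector T cells, was at 180.2, 282.5 and 228 CPM in double-positive and at 76.9, 58.55 and 6.82 CPM in Il17a-only cells (log2 fold change 1.87, SE 0.21, edgeR adjusted p = 1.27e-05). Il12rb2, the chain that makes the IL-12 receptor signal, was at 62.04, 96.5 and 35.3 against 16.99, 26.8 and 22.7 CPM (1.81, SE 0.25, edgeR adjusted p = 2.4e-04). The lowest double-positive value of both genes lay above the highest Il17a-only value, though Il12rb2 lost the call with DESeq2 and without the block. Tbx21, which encodes T-bet, the master regulator of Th1 cells, was rare but higher, at 9.39, 9.80 and 16.1 against 4.295, 4.88 and 2.27 CPM (1.12, SE 0.25, edgeR adjusted p = 0.0127); it did not pass without recipient 1, without recipient 2, without the recipient block, or with cells matched in total UMIs. Ccl4 (2.99, edgeR adjusted p = 1.47e-04) and Ccl3 (4.10, edgeR adjusted p = 0.00159), both inflammatory chemokines, passed at low counts. Ccl4 was at 20.97, 35.5 and 0 CPM against 3.92, 1.996 and 9.09 CPM, so recipient 4 went the other way, and lost the call with DESeq2. Ccl3 stayed under 5 CPM in both classes, lost the call without recipient 2 and changed sign in thinned cells (-0.72).

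In the Th17 list the calls went both ways. Of 13 Th17 genes tested, 1 rose and 2 fell, with a median log2 difference of -0.07. Il23r, the receptor chain for IL-23, gave -0.20 (SE 0.12, edgeR adjusted p = 0.508). Il17f (chromosome 1, 20777146 to 20790617), the neighbour of Il17a, rose from 355.5, 397 and 179.5 CPM to 487, 528 and 376 CPM (0.50, SE 0.10, edgeR adjusted p = 0.00701), although the recipients overlapped, and it lost the call with DESeq2, without recipient 2 and without the block.

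Ccr6 (chromosome 17, 8236043 to 8257141) fell. It was at 56.8, 48.04 and 35.3 CPM in double-positive and at 117, 101 and 225 CPM in Il17a-only cells, with no overlap (-1.12, SE 0.19, edgeR adjusted p = 0.0013). It was no longer called with DESeq2, without recipient 2 or without the block. Irf4, a factor induced by antigen receptor signals, also fell (-0.51, SE 0.12, edgeR adjusted p = 0.0192), a call that was lost without recipient 1, without recipient 2, with DESeq2 and without the block.

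Lists named for pathogenic and homeostatic Th17 cells were read next. Of 14 pathogenic Th17 genes tested, 5 rose and none fell (median 0.05): Tbx21, Ccl3, Ccl4 and Ccl5, which are also Th1 genes, and Lgals3, which encodes galectin-3. Lgals3 was at 66.0, 101 and 67.4 CPM against 28.8, 40.6 and 18.2 CPM (1.28, SE 0.11, edgeR adjusted p = 6.21e-07). Csf2, the cytokine GM-CSF that gives this list much of its name, was at most 7.45 CPM in double-positive and 13.75 CPM in Il17a-only cells and gave -0.86 (SE 0.29, edgeR adjusted p = 0.132). Of 6 homeostatic genes tested, only Il10 passed, lower in double-positive cells. Il10, the anti-inflammatory cytokine, was at 151, 159 and 0 CPM against 247, 266 and 59.1 CPM (-0.77, SE 0.14, edgeR adjusted p = 0.0035), lower in 3 of 3 recipients; it lost the call with DESeq2, without recipient 2 and without the block.

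Slamf6, Ccr4 and Cxcr4, which belong to none of the lists, were among the largest falls. Slamf6, a receptor of progenitor-like and follicular T cells, was at 21.7, 17.1 and 6.42 CPM in double-positive and at 58.1, 66.1 and 99.99 CPM in Il17a-only cells (-1.74, SE 0.16, edgeR adjusted p = 1.25e-06). The chemokine receptor Ccr4 was at 18.8, 26.9 and 9.63 against 44.4, 68.5 and 70.45 CPM (-1.34, SE 0.14, edgeR adjusted p = 3.38e-06). Both were lower in all 3 recipients without overlap and passed under all 13 alternatives. Cxcr4, the receptor for CXCL12, fell by 1.39 on the log2 scale (SE 0.11, edgeR adjusted p = 3.3e-07; 23.8, 38.8 and 6.42 against 66.3, 94.03 and 47.7 CPM), and it lost the call without the block. Of 7 follicular helper T cell genes tested 2 fell and none rose, with a median of -0.28. They were Sh2d1a, the adaptor of SLAM receptors (-0.66, SE 0.09, edgeR adjusted p = 8.39e-05), whose call was lost without recipient 2, and the chemokine receptor Cxcr5 (-1.49, edgeR adjusted p = 0.0441), which averaged 1.24 against 4.26 CPM and lost the call without recipient 2 and without the block.

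Of 9 naive and recirculation genes tested, 6 fell and none rose, with a median of -0.67. Tcf7, a factor of naive and stem-like T cells, was at 81.1, 111 and 73.9 against 117, 179 and 164 CPM (-0.64, SE 0.10, edgeR adjusted p = 5.89e-04), without overlap. S1pr1, the receptor that takes T cells out of tissues, fell by 1.10 (SE 0.21, edgeR adjusted p = 0.00362) and Klf2, which drives S1pr1, fell by 0.67 (SE 0.13, edgeR adjusted p = 0.00453). Ccr7 fell by 2.05 (SE 0.38, edgeR adjusted p = 0.0036), lower in 2 of 3 recipients. S1pr1 lost the call without recipient 1, Tcf7 and Ccr7 without recipient 2 and Klf2 without either, and all 4 lost it without the block.

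Several of the remaining largest rises belong to no list. Jaml, a junctional adhesion receptor of leukocytes, was at 94.3, 112 and 167 against 35.85, 27.9 and 65.9 CPM (1.64, SE 0.13, edgeR adjusted p = 3.3e-07). Ociad2 (1.69), the gap junction gene Gja1 (1.14) and AC163354.1 (1.21) rose as well, each with edgeR adjusted p at or under 3.02e-05. These 4 genes, with Nkg7, Ccl5, Slamf6 and Ccr4, passed under all 13 alternatives; the other 16 of the 24 largest changes lost the call under at least 1. Dapk2 (1.62), Abi3bp (1.39), Cd7 (1.18) and the protease Mmp9 (1.17) completed the 12 largest rises, and Cd7 was at -0.03 in thinned cells. Of these 4, Abi3bp lost the call without recipient 2, and Dapk2, Cd7 and Mmp9 without recipient 1 and without recipient 2. Havcr2, which encodes the coinhibitory receptor TIM-3, rose from 47.8, 33.5 and 50.0 to 89.02, 70.0 and 138 CPM (1.00, SE 0.12, edgeR adjusted p = 2.53e-05). It was the only gene called higher of 8 tested in the coinhibitory receptor list. Tnfrsf9 was called lower, and only 2 of the 8 had a positive log2 difference (median -0.22).

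Among the further falls, Hspa1b (-1.79) was a heat shock gene that lost the call in 6 of 13 settings, among them without recipient 2 and without recipient 4. Krt83 (-1.39), the costimulatory receptor Tnfrsf4 (-1.12), the transporter Abcb1b (-1.11), the folate receptor family member Izumo1r (-1.07), Ctla2a (-0.89) and Sh3bp5 (-0.88) fell with edgeR adjusted p from 9.93e-05 to 0.0106. All 7 of these lost the call without the block. Krt83, Abcb1b and Ctla2a also lost it without recipient 2, and Izumo1r and Sh3bp5 without recipient 1 and without recipient 2. Of 6 regulatory T cell genes tested 3 fell (Ikzf2, Il2ra and Tnfrsf18, by 0.35 to 0.46), after cells with Foxp3 had been left out of both classes. In the IkB and NF-kB list of 12 genes Nfkbiz rose (0.37, edgeR adjusted p = 0.00498) and Relb fell (-0.37, edgeR adjusted p = 0.0288), and Bcl3 stood at 74.1, 72.55 and 77.1 against 73.6, 65.9 and 54.5 CPM (0.09, SE 0.09, edgeR adjusted p = 0.762). The calls of Ikzf2, Il2ra, Tnfrsf18, Nfkbiz and Relb were lost without recipient 1, without recipient 2 and without the block.

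Transcripts of the gamma-delta T cell list were also more abundant. Of its 6 tested genes 3 rose: Tcrg-C2 (1.11, SE 0.10, edgeR adjusted p = 1.25e-06), Tcrg-C1 (0.39, edgeR adjusted p = 0.0133) and the kinase Blk (1.06, edgeR adjusted p = 0.00358). The summed level of the list was 392, 362 and 920.3 CPM in double-positive, 229, 284 and 442 CPM in Il17a-only and 247, 273 and 564 CPM in Ifng-only cells. Its defining gene Trdc, the delta constant region, was found in 0.305%, 1.05% and 2.08% of thinned double-positive cells, and Sox13 had no UMI in any. Cd4 was found in 74.5%, 74.5% and 77.1% of the same cells, and the 2 Cd8 genes summed to at most 10.6 CPM. The Blk call was lost without recipient 1 and the Tcrg-C1 call without recipient 1 and without recipient 2. Tcrg-C1 and Tcrg-C2 are near-identical copies and the split of reads between them is uncertain. Of the other marker lists, B cell genes summed to 27.7 to 87.4 CPM in double-positive, 44.2 to 155 CPM in Il17a-only and 19.0 to 735 CPM in Ifng-only cells; the B cell gene Ms4a1 had no UMI in double-positive cells. Natural killer and innate lymphoid genes summed to 77.9 to 212 CPM in double-positive, 47.4 to 112 CPM in Il17a-only and 21.9 to 61.2 CPM in Ifng-only cells. Ncr1, the defining gene of that list, had no UMI in any class. Most of the double-positive sum was Kit, the receptor for stem cell factor, at 103.5, 74.1 and 193 CPM in double-positive and 105, 44.1 and 79.5 CPM in Il17a-only cells (0.38, SE 0.18, edgeR adjusted p = 0.382, though it passed without recipient 1 and in thinned cells). The part of these other cell types in the differences was not tested.

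The second comparison set the same double-positive sums against the Ifng-only cells, so the 2 comparisons share samples and are given side by side. Here 10 of 13 Th17 genes and 5 of 8 coinhibitory receptors were called higher in the members, and 10 of 14 Th1 and 8 of 12 cytotoxic granule genes lower. Gzma and Gzmb, which are given without a test, were higher than in the Ifng-only cells of each recipient. Of the 10663 genes 2569 (24.1%) passed, 1196 higher (11.2%) and 1373 lower (12.9%); 1153 did so without the block, and 783, 986 or 2827 without recipient 1, 2 or 4. Double-positive values lay above all Ifng-only values in 10.9% and below them in 13.3% of the genes. The classes differ in Il17a by construction, and the Ifng-only cells form the broader class, since it takes in any sorted cell with an Ifng UMI and no Il17a within the same limits.

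**Figure D3:**
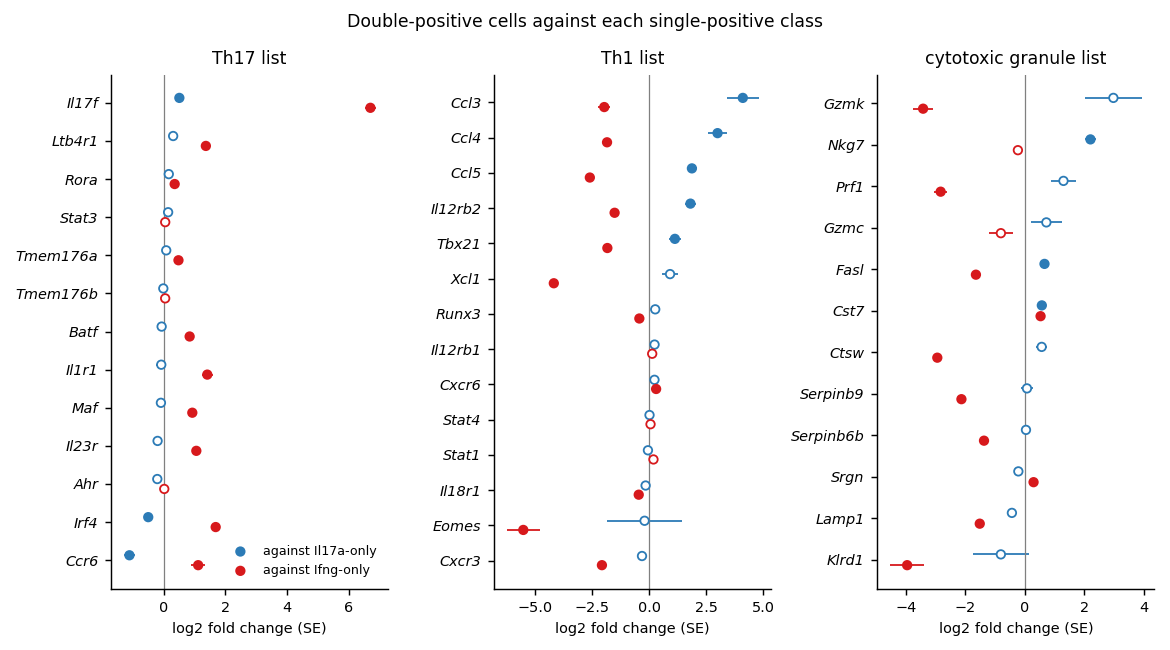
Log2 fold change with its standard error (horizontal axis) of the tested genes of 3 lists, double-positive against Il17a-only cells (blue) and against Ifng-only cells (red); filled symbols passed an edgeR adjusted p of 0.05. Th1 genes such as Ccl5, Il12rb2 and Tbx21 lay above 0 in the first and below 0 in the second comparison, while Maf and Il23r lay near 0 in the first and above 0 in the second.

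Of 13 Th17 genes 10 rose and none fell, with a median of 0.92 beside -0.02 over all genes. Il17f stood at 487, 528 and 376 CPM against 2.84, 6.34 and 9.61 CPM (6.71, SE 0.17, edgeR adjusted p = 3.1e-16), a 105-fold difference. Ltb4r1, a receptor for leukotriene B4, was at 141 ± 4.88 CPM against 57.6 ± 10.5 CPM (SD, 3 recipients), with no overlap (1.36, SE 0.12, edgeR adjusted p = 4.56e-08). Maf, which drives Il10 in Th17 cells, was at 1489, 1441 and 1484 against 866, 737 and 706 CPM (0.92, SE 0.07, edgeR adjusted p = 6.65e-09). Il23r (1.05, edgeR adjusted p = 3.64e-06) and Ccr6 (1.11, edgeR adjusted p = 8.34e-04) also passed, but both were lower in the double-positive cells of recipient 4, where Ccr6 was at 35.3 against 104 CPM. Ccr6 lost the call without recipient 1 and without recipient 2.

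Of 14 Th1 genes 10 fell and 1 rose, with a median of -1.67. Ccl5 was at 180.2, 282.5 and 228 CPM in double-positive and at 1546, 1222 and 1281 CPM in Ifng-only cells (-2.60, SE 0.18, edgeR adjusted p = 1.1e-09), so its double-positive level was intermediate. Tbx21 was at 9.39, 9.80 and 16.1 against 37.5, 32.4 and 31.6 CPM (-1.83, SE 0.16, edgeR adjusted p = 2.88e-08), and Cxcr3, a chemokine receptor of Th1 cells, at 34.3, 60.2 and 9.63 against 179, 189 and 151 CPM (-2.07, SE 0.14, edgeR adjusted p = 1.6e-09). Il12rb2 fell too (-1.51, SE 0.18, edgeR adjusted p = 2.59e-06), although in recipient 4 its levels were near, at 35.3 and 39.8 CPM. Cxcr6, a receptor of tissue-resident cells, was the 1 that rose (0.30, edgeR adjusted p = 0.00402), and it lost the call without recipient 1, without recipient 2 and without the block.

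Of 12 cytotoxic granule genes 8 fell and 2 rose, with a median of -1.58. Prf1 was at 4.11, 3.14 and 3.21 against 30.4, 21.7 and 12.4 CPM (-2.83, SE 0.23, edgeR adjusted p = 1.14e-08). Ctsw, a cathepsin of cytotoxic lymphocytes, was at 23.2, 42.2 and 38.5 against 231, 272 and 159 CPM (-2.94, SE 0.13, edgeR adjusted p = 1.89e-12). Neither overlapped between the classes. Fasl (-1.64) and the granzyme inhibitor Serpinb9 (-2.13) also fell, with edgeR adjusted p of 1.52e-09 and 4.65e-09. Nkg7, in contrast to these, gave -0.23 (SE 0.15, edgeR adjusted p = 0.326): its Ifng-only levels were 555, 466.5 and 352 CPM, above the double-positive level in recipients 1 and 2 and below it in recipient 4. The granule genes of the members were a mixed set, with Gzma above and Prf1 and Ctsw below the Ifng-only cells.

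Of 8 coinhibitory receptors tested 5 rose and 2 fell. Havcr2 was at 89.02, 70.0 and 138 against 6.39, 8.60 and 16.5 CPM (3.37, SE 0.15, edgeR adjusted p = 1.91e-12). Lag3, a receptor that binds MHC class II, was at 139, 143 and 103 against 20.2, 18.7 and 21.97 CPM (2.82, SE 0.11, edgeR adjusted p = 7.6e-13). Ctla4 also passed (1.13, edgeR adjusted p = 1.74e-06), and Cd160 fell (-2.19, edgeR adjusted p = 1.14e-08). Lag3 had no called difference between double-positive and Il17a-only cells, whose levels were 146, 127 and 179.5 CPM.

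All 9 tested naive and recirculation genes fell (median -1.24). Il7r, the IL-7 receptor of long-lived T cells, was at 228, 436 and 299 against 989, 1071 and 1189 CPM (-1.78, SE 0.13, edgeR adjusted p = 2.88e-09), and the survival gene Bcl2 at 34.5, 59.8 and 41.75 against 223.5, 233 and 229 CPM (-2.33, SE 0.17, edgeR adjusted p = 2.66e-09). Neither overlapped. Among cytokines, Il10 rose (1.54, edgeR adjusted p = 3.79e-07; higher in 2 of 3 recipients), as did the epithelial growth factor Areg (2.60, edgeR adjusted p = 2.77e-08; higher in 2 of 3), while Il2 (-1.60, edgeR adjusted p = 8.29e-05) and Csf2 (-2.25, edgeR adjusted p = 3.41e-07) fell.

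Over all genes that passed and reached the level set for naming, the largest rises were in Ccr1 (4.46), a receptor for CCL3 and CCL5, Nckap5 (3.90), the integrin chain Itgb5 (3.79), Ociad2 (3.59), the giant muscle protein gene Neb (3.43), the small GTPase Gem (3.39), Cap2 (3.21), Rbm24 (3.14) and Nrgn (2.84), besides Il17f, Havcr2 and Blk (4.08). Ccr1 stood at 156, 113 and 103 against 4.83, 7.996 and 0 CPM. The largest falls were in the chemokine Xcl1 (-4.17), Hspa1b (-3.31), the collagen-binding integrin chain Itga1 (-3.13), Ctsw, Slamf7 (-2.81), Ifitm2 (-2.71), Gramd3 (-2.62), Ccl5, Gpr18 (-2.39), Mctp2 (-2.38), Bcl2 and Fam26f (-2.29). Itga1, a marker of resident cells, was at 13.8, 17.8 and 0 against 144, 125 and 50.8 CPM. All of these 24 kept their direction in 3 of 3 recipients.

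Immunoglobulin transcripts moved with this comparison. Igkc (-3.84, edgeR adjusted p = 2.06e-06), Jchain (-3.08, 1.12e-05) and Igha (-2.66, 5.47e-04) were lower in double-positive cells, each in 2 of 3 recipients. All 3 lost the call with DESeq2 and without the block, Jchain and Igha also with CD45.2 cells only, and Igha changed sign in thinned cells (0.31). The Ifng-only sums held 322, 735 and 19.0 CPM of B cell list genes. In recipient 2, Igkc was at 749 CPM over all 1173 Ifng-only cells but at 23.75 CPM in the 144 with a CD45.1 call and 75.2 CPM in the 1001 with a CD45.2 call, near the 65.5 CPM of the double-positive cells; 27 of the 1173 cells carried both tags. In recipient 1 it was at 260.5 CPM over all Ifng-only cells and at 103 and 285 CPM in those with a CD45.1 and a CD45.2 call, against 7.04 CPM in double-positive cells. Kit, of the natural killer and innate lymphoid list, was higher in double-positive than in Ifng-only cells, whose levels were 11.4, 11.8 and 56.3 CPM (2.74, SE 0.23, edgeR adjusted p = 2.09e-08). The part of other cell types in these differences was not tested.

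The donors were compared within the members, first in the targeted gene. Bcl3 (chromosome 7, 19808462 to 19822770) was at 31.1 and 21.1 CPM in the CD45.1 members of recipients 1 and 2, labelled wild type, and at 75.8, 76.8 and 83.95 CPM in the CD45.2 members of recipients 1, 2 and 4, labelled Bcl3-/-. The values of the 2 donors did not overlap, and the higher ones belong to the cells labelled as lacking the gene (log2 fold change 1.59, SE 0.34, edgeR adjusted p = 0.0917, which did not pass). Among Ifng-only cells Bcl3 was higher with the CD45.2 tag too (1.52, edgeR adjusted p = 6.46e-04). Which exons the knockout allele lacks was not given in the labels. Tags at the 3' end check nothing if they lie outside the deleted part, so every donor direction below rests on the labels.

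**Figure D4:**
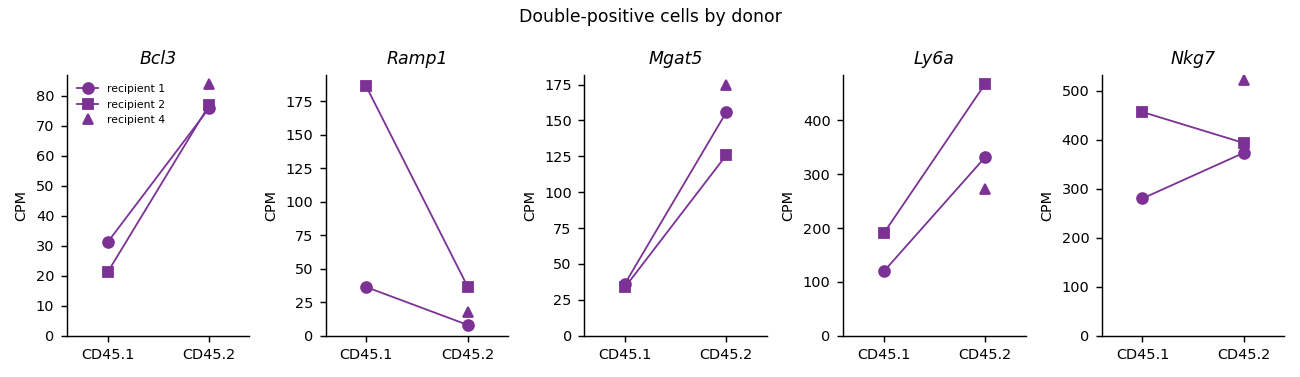
Level (CPM of summed UMIs, linear axis from 0) of Bcl3, 3 genes that passed the donor test and Nkg7 in CD45.1 and CD45.2 double-positive cells; lines join the sums of 1 recipient, and recipient 4 has a CD45.2 sum only. Mgat5 and Ly6a were higher and Ramp1 lower in the CD45.2 sum of recipients 1 and 2, and Nkg7 went in opposite directions in them.

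Double-positive cells took a larger share of the CD45.2 than of the CD45.1 cells. Among cells with the CD45.1 tag, 27 of 736 (3.67%, interval 2.43 to 5.29), 39 of 851 (4.58%, 3.28 to 6.21) and 2 of 102 (1.96%, 0.238 to 6.90) were double-positive in recipients 1, 2 and 4. Of the CD45.2 cells 11.4% (10.8 to 12.1), 8.84% (8.24 to 9.48) and 3.57% (2.62 to 4.73) were. The intervals of recipients 1 and 2 did not overlap, and those of recipient 4 did. The difference in log2 odds, CD45.2 minus CD45.1, was 1.74, 1.00 and 0.59, a mean of 1.11 ± 0.58 (SD, n = 3), higher in 3 of 3 recipients; an exact sign-flip permutation over recipients (two-sided) gave p = 0.25, the smallest that 3 recipients allow. Il17a-only cells were also a larger share of the CD45.2 cells in each recipient, making up 9.47%, 8.42% and 5.20% of them against 4.48%, 4.58% and 0% of CD45.1 cells (0 of 102 cells allows up to 2.94%). Ifng-only cells made up 13.2%, 16.9% and 8.82% of all cells with the CD45.1 tag and 12.3%, 12.2% and 8.22% of those with the CD45.2 tag.

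Among cells that had passed the Il17a limit, the share that also held Ifng had overlapping intervals in the 2 donors of recipients 1 and 2. It was 45.0% (27 of 60 cells, interval 32.1 to 58.4) and 50.0% (39 of 78, 38.5 to 61.5) of the CD45.1 cells of recipients 1 and 2, and 54.7% (52.3 to 57.1) and 51.2% (48.6 to 53.9) of their CD45.2 cells. In recipient 4 only 2 CD45.1 cells were Il17a-high, and both held Ifng, beside 40.7% of the CD45.2 cells. The mean difference in log2 odds was -0.74 ± 1.85 (SD, n = 3; exact two-sided sign-flip permutation p = 1), and 0.31 without recipient 4. Of the CD45.1 cells in either the double-positive or the Ifng-only class, 21.8%, 21.3% and 18.2% were double-positive in recipients 1, 2 and 4. Of the CD45.2 cells in either class, 48.2%, 42.0% and 30.3% were. Ifng-holding cells with 1 or 2 Il17a UMIs belong to neither class and were not counted in these shares.

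**Figure D5:**
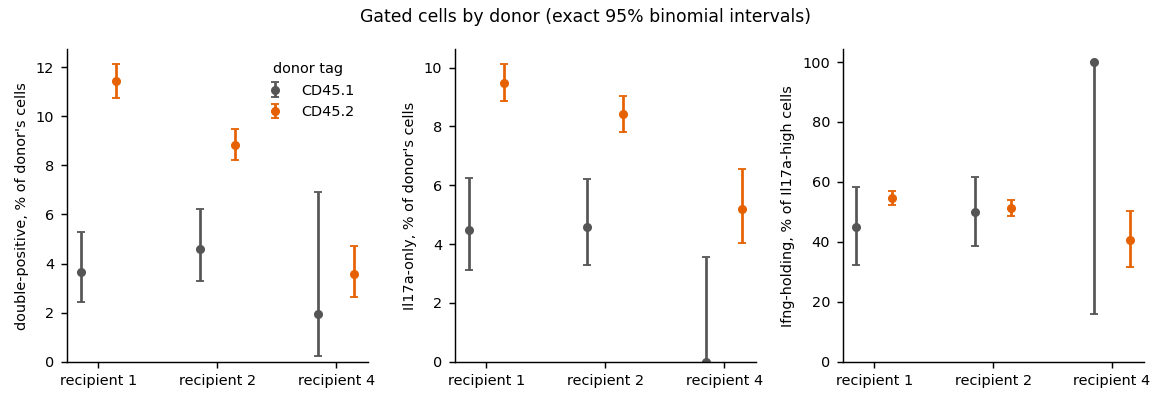
Share of each donor's cells that were double-positive or Il17a-only, and share of each donor's Il17a-high cells that held Ifng (percent, with exact 95% binomial intervals), by recipient. The double-positive and Il17a-only shares were higher among CD45.2 cells in all 3 recipients, while the Ifng-holding share overlapped between donors in recipients 1 and 2 and rests on 2 CD45.1 cells in recipient 4.

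Few genes differed between the donors within the members. Only recipients 1 and 2 had at least 10 CD45.1 members (27 and 39 cells, 184303 and 240187 UMIs), so recipient 4 entered with its CD45.2 sum alone, and the contrast rests on these 66 cells. Of 8057 genes tested 4 passed (0.0496%), 2 higher (0.0248%) and 2 lower (0.0248%) in CD45.2 cells, and 620 (7.7%) had an unadjusted p under 0.05. No gene of any list passed. Without recipient 2 none of the 4 was called and 3 other genes were, while 18 were called without recipient 1, 3 of them among the 4, and 9 without recipient 4. Leaving out recipient 1 or 2 leaves a single CD45.1 double-positive sum, which is then assumed to vary like the other sums in the fit.

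Mgat5, an enzyme that branches N-glycans on surface proteins, was at 36.3 and 33.8 CPM in CD45.1 and at 156 and 126 CPM in CD45.2 members of recipients 1 and 2 (1.99, SE 0.27, edgeR adjusted p = 0.00153). Ly6a, the surface protein Sca-1, was at 119 and 190.3 against 331.5 and 468 CPM (1.36, SE 0.20, edgeR adjusted p = 0.00223). Ramp1, a subunit of the receptor for the neuropeptide CGRP, was at 36.3 and 186 against 8.08 and 36.65 CPM (-2.35, SE 0.28, edgeR adjusted p = 2.91e-04). Its CD45.1 value in recipient 1 lay just under the CD45.2 value in recipient 2, so the donors overlapped across animals but not within one. The fourth gene, Ctse (-3.69, edgeR adjusted p = 0.00223), was too low for the naming rule and is named because only 4 passed.

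Mgat5 and Ramp1 lie on chromosome 1, 10.6 and 46.8 Mb from Ptprc, the gene that encodes CD45 and separates the congenic strains, and Ly6a lies on chromosome 15. The position of Ctse, the fourth gene that passed, is not given here. Donor strain and genotype cannot be told apart at any of the 4 genes. Mgat5 was also higher in CD45.2 cells among the Il17a-only (2.42, edgeR adjusted p = 0.00261) and Ifng-only cells (2.19, edgeR adjusted p = 7.36e-06). Ramp1 was also lower in CD45.2 cells among the Il17a-only cells (-1.51, edgeR adjusted p = 0.00804). No gene was called for a donor difference that differed between double-positive and Il17a-only cells. By edgeR 0 of 8057 passed, with 496, or 6.16%, at an unadjusted p under 0.05. The count was 0 also without the block, and 21 without the low-count filter. The contrast rests on the few CD45.1 cells of recipients 1 and 2, so a missing call does not show that the donor differences were equal. Against Ifng-only cells 4 of 8057 (0.0496%) passed, with 611 (7.58%) at an unadjusted p under 0.05. Of the genes that defined or marked the members, Il17a was at 10770 and 4461 CPM in CD45.1 against 7856 and 6655 CPM in CD45.2 members, Ifng at 706 and 1171 against 938 and 974 CPM, and Gzmb at 1194 and 672 against 1003 and 821.5 CPM. Each of these 3 went in opposite directions in the 2 recipients, and so did Gzma, Zeb2 and Nkg7, the last at 280.3 and 457 against 373.5 and 393.5 CPM. Il18rap was higher in the CD45.2 members of both, at 57.1 and 42.3 against 64.9 and 50.8 CPM.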

How the data were processed

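Counts of UMIs per gene and cell, and of the 2 antibody tags, were deposited by the authors as raw filtered matrices. Cell Ranger 6.1.1 and the mm10 genome are named per the submitters' processing notes; other settings were not stated there. Barcodes with at least 500 genes and at most 10% mitochondrial UMIs were kept. A donor was called from at least 10 UMIs of the 2 tags together and a ratio of at least 4 of 1 tag to the other. Recipient 3 was left out of every comparison.

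Raw counts were summed per recipient and class, and for donor contrasts per recipient, class and donor (at least 10 cells), with 283605 to 6638131 UMIs in the double-positive sums of recipients 1, 2 and 4. CPM values are these counts per 1000000 UMIs, scaled by TMM except for the summed marker lists. Genes were filtered with filterByExpr and tested with edgeR 4.0.16 (R 4.3.3; quasi-likelihood, TMM, recipient as a block, Benjamini-Hochberg adjustment over all genes tested); all 3 classes shared 1 fit, and all class by donor sums another. DESeq2 1.42.0 was an alternative. Shares were compared with exact two-sided sign-flip permutation tests on log2 odds, with 0.5 added to each count, and intervals are Clopper-Pearson (scipy 1.17.1). For thinned shares each cell was drawn down to 3000 UMIs, which left out 23, 26 and 1 double-positive cells of recipients 1, 2 and 4. The edgeR fits were tested on simulated counts. Classes of 1 recipient come from the same animal, which gives the pairing: their deviations correlated at 0.294 to 0.455 over 6493 genes. In the class comparisons, edgeR p-values measure the spread left over the 3 recipients once the block has taken out differences between recipients. In the donor contrasts only recipients 1 and 2 hold CD45.1 sums, and the spread is shared over all class by donor sums. The permutation tests of shares flip signs over 3 recipients.

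The genes named from each class comparison were the 12 with the largest rise and the 12 with the largest fall among called genes that moved the same way in each recipient and had an average log2 CPM no lower than 4, besides the members of the gene lists; other genes were named after their values were seen. Some genes of the lists are not reported here. Members, lists and tests were chosen with earlier results of these data known. The alternatives were another scaling, no low-count filter, no block, leaving out each recipient, the 2 classes alone, at least 2 Ifng UMIs, cells without very high UMI counts, thinned cells, cells matched in UMIs, and CD45.2 cells only.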

Additional observations from a re-analysis of the deposited data

Results flagged for a closer look

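Lmo4, Nfil3, Ramp1 and Ly6a had a donor difference that itself differed between double-positive and Ifng-only cells by the interaction term of edgeR's quasi-likelihood test, 0.0496% of the 8057 tested, with 611 at an unadjusted p under 0.05. None of the 4 was called without the block, 2 of the 4 were without recipient 1 and 2 without recipient 2, where a single CD45.1 double-positive sum is left. Ramp1 was lower in CD45.2 cells among the double-positive cells (-2.35) and at -0.15 among the Ifng-only cells, a difference of -2.20 (SE 0.35, edgeR adjusted p = 0.0121). Among Il17a-only cells Ramp1 was called lower with the CD45.2 tag as well (-1.51, edgeR adjusted p = 0.00804). Its Ifng-only levels were 18.3 and 38.0 CPM in CD45.1 and 8.70 and 41.9 CPM in CD45.2 cells of recipients 1 and 2. Ly6a was higher in CD45.2 double-positive cells (1.36) and at -0.08 in Ifng-only cells, a difference of 1.44 (SE 0.24, edgeR adjusted p = 0.0121); its Ifng-only levels were 574 and 666 against 548 and 609 CPM.

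Lmo4, a LIM-domain transcriptional cofactor, differed the other way round: it was at 0.01 in double-positive and at 1.52 in Ifng-only cells, a difference of -1.51 (SE 0.24, edgeR adjusted p = 0.0121). Its CPM was 223 and 186 in CD45.1 against 202 and 210.1 in CD45.2 double-positive cells, and 63.1 and 99.8 against 221 and 251 in Ifng-only cells. Nfil3, a factor that is needed for innate lymphoid cells, was at -0.33 in double-positive and 1.17 in Ifng-only cells, a difference of -1.50 (SE 0.26, edgeR adjusted p = 0.024). The CD45.1 Ifng-only cells were low in both genes, and the CD45.1 double-positive cells were not. The double-positive values rest on the 66 CD45.1 members of recipients 1 and 2, and the Ifng-only values on 97 and 144 CD45.1 cells.

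The recipient that was left out held 335 cells inside the gate, 9.24% of its kept barcodes. Their median was 4891 UMIs, against 9226 in its other barcodes.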

How the results depend on the processing

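Against Il17a-only cells, 338 genes were called; DESeq2 called 200 (189 shared), no low-count filter gave 575, the 2 classes alone 543 and no replicate block 19, all shared. Leaving out 1 recipient gave 47 (without recipient 2) to 369. Against Ifng-only cells, 2569 became 1486 with DESeq2, 1153 without the block and 783 (without recipient 1) to 2827 leaving out 1 recipient. Between donors, 4 became 15 with DESeq2, 58 without the filter, 2 without the block, 40 with the double-positive sums alone and 3 to 18 leaving out 1 recipient. The donor difference between double-positive and Il17a-only cells had 0 calls, 21 without the filter, 0 without the block and 0 to 2 leaving out 1 recipient; against Ifng-only cells it had 4, then 62, 0 and 7 to 19. The share of double-positive cells differed between donors by 1.11 log2 odds, 0.793 to 1.37 leaving out 1 recipient, with an unpaired exact permutation p of 0.3. The Ifng-holding share gave -0.744, with -1.39 to 0.314 leaving out 1 recipient (0.314 without recipient 4, so its sign reversed) and an unpaired exact permutation p of 0.7. Among named genes, Cd7 (-0.028) and Ccl3 (-0.72) reversed against Il17a-only cells in thinned cells, Igha reversed there without recipient 1 (1.55, and -4.30 without recipient 2), and Igha reversed against Ifng-only cells in thinned cells (0.31). In the other gene and setting pairs against Il17a-only cells the side of the threshold was kept in 1113 of 1329, lost in 140 and gained in 73. The causes were not tested. Depth and the number of animals limit the donor contrast: its CD45.1 sums come from recipients 1 and 2 alone and held 184303 and 240187 UMIs.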

Other observations

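Between double-positive and Il17a-only cells, of 12 immediate early genes tested none rose and 1 fell, of 12 glycolysis genes none rose and 1 fell, and of 9 cycling genes none passed, with median log2 differences of -0.06, -0.15 and -0.05. Over all genes tested in this comparison 1.44% were called higher and 1.73% lower. Of 9 tissue residency genes 2 rose, the integrin chain Itga1 (1.18, higher in 2 of 3 recipients) and the signalling regulator Rgs1 (0.37, edgeR adjusted p = 0.0132), and none fell. Both calls were lost without recipient 2, without the block and, for Itga1, also without recipient 1. Of 9 gut homing and adhesion genes 1 fell, Itga4, the alpha chain of the gut homing integrin (-0.31), a call lost without recipient 1, without recipient 2 and without the block. Against Ifng-only cells, the gut chemokine receptor Ccr9 was higher (0.72), and Bcl3 too (0.37, edgeR adjusted p = 0.00486), although Bcl3 lost the call without recipient 1 and without recipient 2.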
